A study of Mus musculus with 2 samples.

Results

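The smooth muscle contractile genes are 10 genes chosen by symbol (Acta2, Tagln, Myh11, Tpm1, Tpm2, Cnn1, Myl9, Des, Actg2 and Lmod1), all of which were found among the 20140 genes of the tables. They were followed in the mural-like cells, which surround blood vessels, in the fibroblast-like cells and in every other cluster. The donors were female C57BL6/J mice, 14 weeks old, whose submandibular and sublingual glands had either been ligated, with a metal clip closing the main ducts, or had undergone a mock operation in which the ducts were located and left unclipped. Harvest was at 14 days in both groups, and epithelial (EpCAM) and erythroid (Ter119) cells as well as dead cells were removed before 1 droplet library was made for each group. The labels give 2 submandibular and sublingual glands per library without the number of animals. With 1 library per condition no difference carries a test, an error or a replicate check, and each value describes these libraries only.

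Smooth muscle cells and the pericytes of small vessels contract when myosin motors pull on actin filaments, a step switched on by phosphorylation of the myosin regulatory light chain. Acta2, Tagln, Cnn1 and Myh11 are the genes most often used to recognise this contractile state, and Acta2 is also widely used as the marker of myofibroblasts, the contractile fibroblasts of scars. In salivary glands the same set is expressed by myoepithelial cells, epithelial cells that wrap the acini and squeeze out saliva. Many of these genes are known targets of the serum response factor, which binds a short DNA element called the CArG box.

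The CArG boxes before the start of the members are shown because the genes are often treated as a unit under this element. The RefSeq promoter table (GRCm38.p6, the assembly also called mm10) held a window for 7 of the 10 genes, and Tagln, Myh11 and Actg2 had no entry. The element was searched as CCNNNNNNGG, which reads the same way on both strands, over the 250 bases before each start. With all 6 middle bases A or T, a match stood in 1 of the 7 member windows (Myl9) and in 1.47% of 32851 windows of all genes. With at least 5 of the 6 middle bases A or T, 2 of the 7 members (Myl9 and Acta2) had a match, each with 2 of them, against 8.59% of all windows. Each match is printed in capitals with 10 bases on either side, 5′ to 3′ on the strand of the gene.
Myl9, chr2:156775293-156775322, plus strand: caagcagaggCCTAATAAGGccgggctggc
Myl9, chr2:156775355-156775384, plus strand: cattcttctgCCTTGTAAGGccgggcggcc
Acta2, chr19:34255438-34255467, minus strand: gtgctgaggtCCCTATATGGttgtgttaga
Acta2, chr19:34255388-34255417, minus strand: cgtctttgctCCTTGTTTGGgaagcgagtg
The first bases of the matches lay 161 and 99 bases before the RefSeq start in Myl9, and 84 and 34 bases before it in Acta2. Both Myl9 stretches lie upstream of the gene in the GENCODE M21 annotation, and both Acta2 stretches fall in its annotated UTR, because the GENCODE transcript starts further upstream. A window without a match says only that these letters are not in it.

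Levels are given as mean UMIs of a gene per 10000 UMIs of a cell, where a UMI marks 1 captured RNA molecule, averaged over the cells of a cluster. Cell numbers recovered from the means came to 4199 in the mock and 11406 in the ligated library, and the median UMI total of the cells for which one could be recovered was 6572 and 6490. Of the 12 clusters of all cells, 9 held at least 50 cells in each library and were compared. Mural-like cluster 6 held 161 mock and 420 ligated cells, 3.83% and 3.68% of the libraries. All 11 mural markers listed for this work were above 0 in it in both libraries, with a summed level of 177 in the mock and 128 in the ligated cells. A second set of tables covers a subset of cells that the authors named after Pdgfr, the receptor family of fibroblasts and mural cells, without saying which member, and Gli1, a transcription factor of perivascular cells. Its mural-like cluster 2 held 128 mock and 274 ligated cells. Of the 287 cells whose UMI total could be recovered and matched between the tables, 286 fell in cluster 6.

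In the mock library the members were concentrated in the mural-like cluster. It held 77.1% of their summed level over all cells, and their summed level there was 165, against 3.86 in the next cluster, the ductal-like cluster 7. In the ligated library the mural-like cluster held 59.2%, with a summed level of 84.0. The next value was 10.2, in cluster 8, which is led by acinar genes and was left unnamed. Mural-like cluster 2 of the subset held 56.4% of the summed level over all cells in the mock and 31.5% in the ligated library. Averaged over all cells, the 10 genes summed to 8.21 in the mock and 5.23 in the ligated library. Such averages alone do not tell apart fewer cells of a type and a lower level per cell. The mural-like share of cells was nearly equal, at 3.83% and 3.68%, while the summed level in the cluster was lower in the ligated library.

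**Figure D1:**
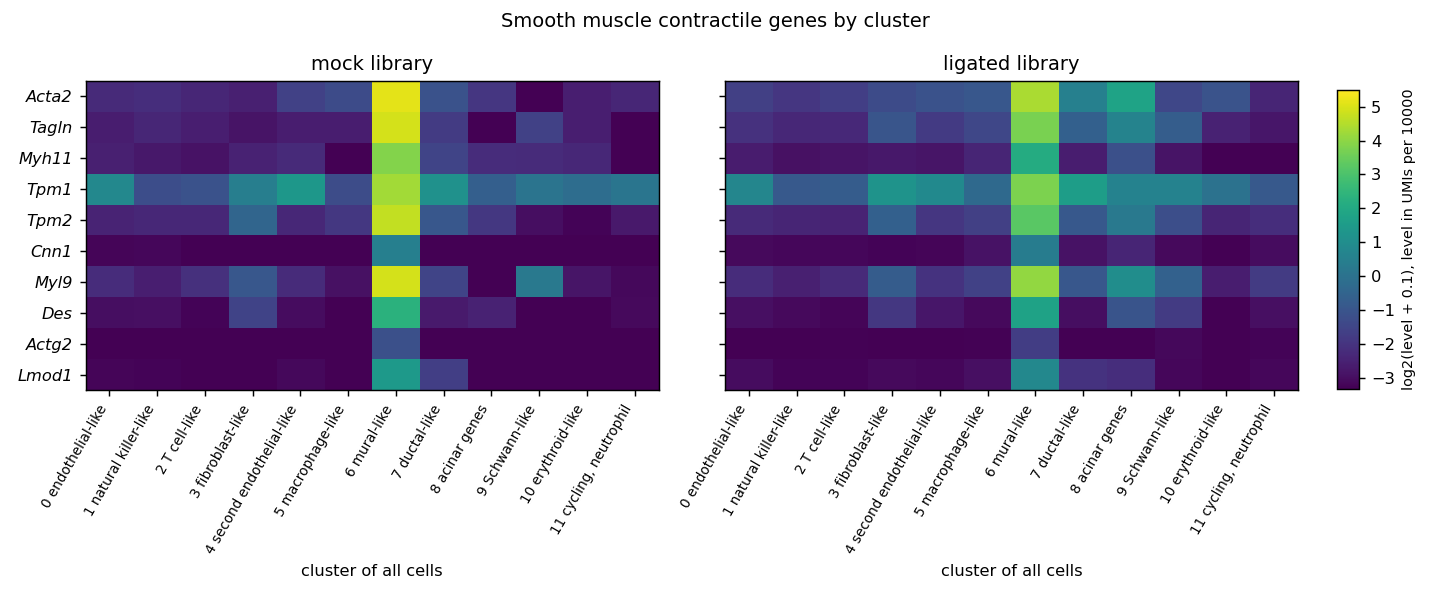
Level of the 10 genes (rows) in the 12 clusters of all cells (columns), as log2(level + 0.1) with the level in UMIs per 10000, in the mock (left) and ligated (right) library. Column 6, the mural-like cells, is the brightest for each of the 10 genes in both libraries, and Tpm1 alone is well above the floor in most other clusters.

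In mural-like cluster 6 all 10 genes were lower in the ligated than in the mock library. The differences, as log2((ligated + 0.1)/(mock + 0.1)), ran from -1.76 for Myh11 to -0.12 for Cnn1, with a median of -0.69. The median over all 10441 genes with a mean of both values of at least 0.05 and listed in both libraries was -0.0077, and 56% of the 4069 genes with a higher value of at least 0.5 were lower by any amount. The size rule asked for a level of at least 0.5 in 1 library and a difference of at least 1 in either direction. By this rule 3 of the 10 genes (Tagln, Myh11 and Tpm2) were lower, of the 9 that reached 0.5, and 4.5% of those 4069 genes were called lower, or 6.04% of the 1789 with a mock level of at least 1. Such shares include genes that stood at 0 in every cluster of 1 library, and without those genes 3.74% of 3980 were called lower. In the mural-like cluster of the subset 9 genes were lower, and 4 (Acta2, Tagln, Myh11 and Tpm2) passed the rule, where 4.26% of 4042 genes were called lower, or 5.43% of the 1788 with a mock level of at least 1, and 53.2% were lower by any amount. Without the genes at 0 throughout 1 library the share called lower there was 3.47%. The median difference there was -0.99.

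The actins form the thin filament. Acta2 (chr19:34241090-34255590), the smooth muscle alpha-actin, stood at 35.4 in the mock and 20.8 in the ligated cells of cluster 6, a difference of -0.77. In the subset it stood at 28.6 and 12.8 (-1.15), so the mock level was 1.70 times the ligated level among all mural-like cells and 2.22 times in the subset. Actg2 (chr6:83512905-83536265), the gamma-actin of enteric smooth muscle, was barely detected, at 0.342 and 0.200 in cluster 6. In the subset it was listed at 0 in the mock cells and at 0.0169 in the ligated cells. For scale, 1 UMI in 1 cell of the median recovered depth adds 0.0140 to a mock mean and 0.0109 to a ligated mean of that cluster, so no difference can be read from these Actg2 values. The coding sequences of the actins are very similar, and how reads shared between them were assigned is not given in the sources used here.

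Tropomyosins run along the actin filament and gate the access of myosin. Tpm2 (chr4:43514711-43523765) stood at 25.8 in the mock and 9.34 in the ligated mural-like cells (-1.45), and at 23.0 and 7.03 in the subset (-1.69). Tpm1 (chr9:67022590-67049406) stood at 19.1 and 13.6 (-0.49), and at 19.1 and 13.5 in the subset (-0.50). Tpm2 was thus past the size rule in both tables and Tpm1 in neither. Both genes make muscle and non-muscle isoforms, which these values do not separate. In the mock library 35.9% of the summed level of Tpm1 lay in the mural-like cluster and 44.8% in endothelial-like cluster 0, where its level was 1.62 against 1.56 in the ligated library.

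Proteins bound to the actin filament differed among themselves. Tagln (chr9:45929619-45936058), which encodes the actin-bundling protein transgelin or SM22, stood at 30.7 in the mock and 13.3 in the ligated cells of cluster 6 (-1.20), and at 27.1 and 7.55 in the subset (-1.83). Lmod1 (chr1:135324807-135368065), an actin filament nucleator of smooth muscle, stood at 2.58 and 1.64 (-0.62), and at 2.40 and 1.72 in the subset (-0.46). Cnn1 (chr9:22099216-22109630), basic calponin, stood at 1.31 and 1.19 in cluster 6 (-0.12) but at 0.397 and 0.0492 in the subset (-1.73), where its higher value lay below the minimum of 0.5. Of the 10 genes Cnn1 differed most between the tables, nearly level in cluster 6 as a whole and lower in the subset.

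Myosin and the intermediate filament followed the same direction. Myh11 (chr16:14194535-14291372), the smooth muscle myosin heavy chain, stood at 14.4 in the mock and 4.20 in the ligated cells of cluster 6, and at 14.9 and 4.42 in the subset. Its mock level was 3.44 times the ligated level in cluster 6 and 3.37 times in the subset, with differences of -1.76 and -1.73. Myl9 (chr2:156775420-156781658), the regulatory light chain, stood at 30.6 and 16.5 (-0.89), and at 30.8 and 17.3 in the subset (-0.83). Des (chr1:75360329-75368579), which encodes the muscle intermediate filament desmin, stood at 4.89 and 3.29 (-0.56), and at 5.54 and 4.23 in the subset (-0.38). Myh11 thus differed by a similar factor in both tables, while Myl9, Des and Lmod1 stayed short of the size rule in both. No member shares an exon on the same strand with another gene in GENCODE M21.

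**Figure D2:**
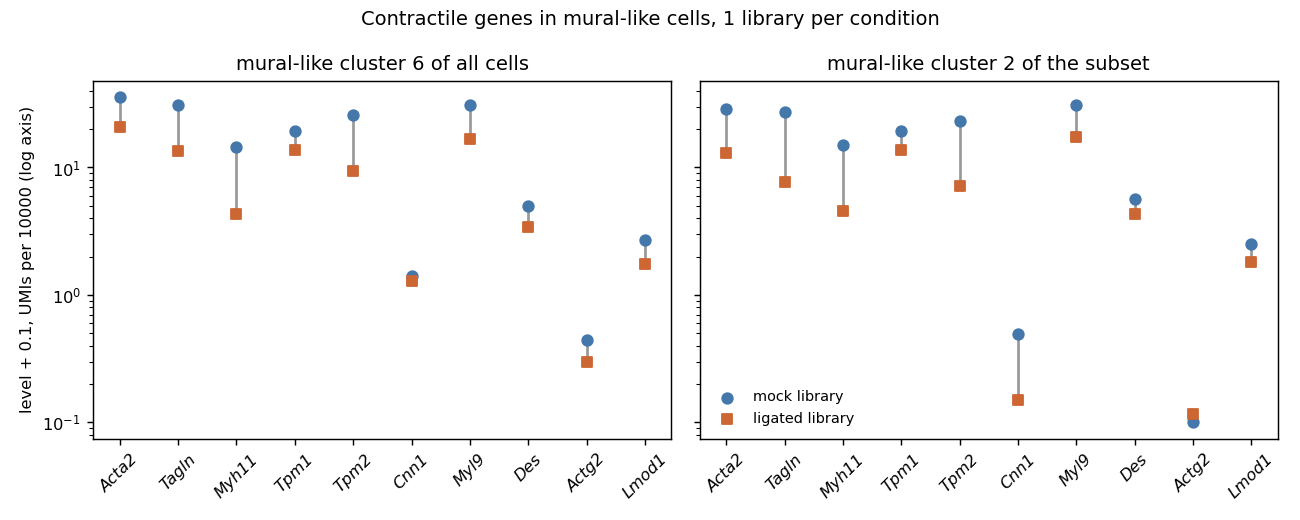
Level + 0.1 of each gene in UMIs per 10000 on a log axis, for mural-like cluster 6 of all cells (left) and mural-like cluster 2 of the subset (right), 1 point per library. The ligated point lies below the mock point for all 10 genes on the left and for all but Actg2 on the right, where Cnn1 stands at 0.397 and 0.0492.

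Markers of other cell types differed between the libraries in both directions in the mural-like cells. For 39 of them, the median ratio to the library mean came to 4.99% among mock and 22.8% among ligated cells of cluster 6, and to 0.904% and 10.3% in the subset. Median recovered UMI totals were 6486 and 4948 in cluster 6, and 5579 and 3334.5 in the subset. Of the 8 macrophage markers, only C1qb was above 0 in the mock cells of cluster 6, with a summed level of 0.00725, against 7 markers and 1.52 in the ligated cells. Natural killer markers summed to 0.0617 in the mock and 4.36 in the ligated cells. Erythroid markers went the other way, from 8.73 in the mock to 1.32 in the ligated cells of cluster 6 and from 10.00 to 1.09 in the subset, with 3 globin genes (Hba-a1, Hba-a2 and Hbb-bs) past the rule and lower in both. Endothelial markers summed to 16.6 and 12.9 and fibroblast markers to 11.7 and 10.1 in cluster 6. After the library mean profile was subtracted at those ratios, the median member difference was -0.70 in cluster 6, and 3 genes in it and 4 in the subset passed the rule. The members stand far above the library mean in cluster 6, so the subtraction could hardly change them. Acta2 went from 35.4 to 35.3 in the mock and from 20.8 to 20.5 in the ligated cells. The part of depth and of these other markers in the differences was not tested.

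Markers of myoepithelial cells were found in the mural-like cluster as well. Krt14, a basal epithelial keratin, stood at 0.622 in the mock and 2.46 in the ligated cells of cluster 6, and 80.1% and 79.9% of its summed level over all cells lay there. Krt17, another basal keratin, stood at 0.473 and 1.77 and was like Krt14 past the size rule. Krt5 stood at 0.0826 and 0.348, and Trp63, a transcription factor of basal epithelium, at 0.0395 and 0.194. The 4 markers summed to 1.22 and 4.77 in cluster 6. In the subset mural-like cluster all 4 were listed at 0 in the mock cells and summed to 0.186 in the ligated cells. Oxtr, the oxytocin receptor and the remaining marker of that list, was listed at 0 in every mock cluster, so its mock value cannot be read as a measured absence.

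The sums of both tables give the mean of those cells of cluster 6 that were not in the subset mural-like cluster, 33 mock and 146 ligated cells (20.5% and 34.8% of the cluster). This division was made after the values had been seen, it takes all cells of the subset cluster to lie in cluster 6, and 33 cells are fewer than the 50 required elsewhere. Cells of cluster 6 also lie in other clusters of the subset. Of the matched cells, 40 of 132 in its endothelial-like cluster 3 and 27 of 200 in its cluster 1 fell in cluster 6. In the remaining cells Cnn1 stood at 4.85 in the mock and 3.34 in the ligated library and Actg2 at 1.67 and 0.544, far above their levels in subset cluster 2. Cnn1 was thus lower both in subset cluster 2 (-1.73) and in the remaining cells (-0.52). It was nearly level over the whole of cluster 6 (-0.12), of which the remaining cells were a larger share in the ligated library. Acta2 stood at 62.0 and 35.7, Tagln at 44.4 and 24.1, and Tpm2 at 36.5 and 13.7. The 10 genes summed to 216 and 113 in the remaining cells, against 152 and 68.6 in subset cluster 2. Myh11 stood at 12.7 and 3.78, close to its levels in subset cluster 2, and Des at 2.38 and 1.54, below its levels there. All 10 genes were lower in the ligated than in the mock library here too, with a median difference of -0.93 and 4 past the size rule (Myh11, Tpm2, Actg2 and Lmod1). The share of all genes called lower was high in these few cells, at 17.7% of the 4286 that reached 0.5 and were not at 0 throughout 1 library.

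The remaining cells carried the myoepithelial markers. Krt14 stood at 3.03 in the mock and 6.95 in the ligated library, and the 4 markers summed to 5.94 and 13.4. Pdgfrb, a receptor gene of mural cells, stood at 3.14 and 3.60 there against 15.2 and 17.5 inside the subset. Rgs5, a signalling regulator abundant in pericytes, stood at 32.6 and 24.2 against 84.0 and 73.1. Endothelial markers were present too, with Flt1, a VEGF receptor, at 18.4 and 6.11. The part of these other cells in the levels of the members was not tested.

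**Figure D3:**
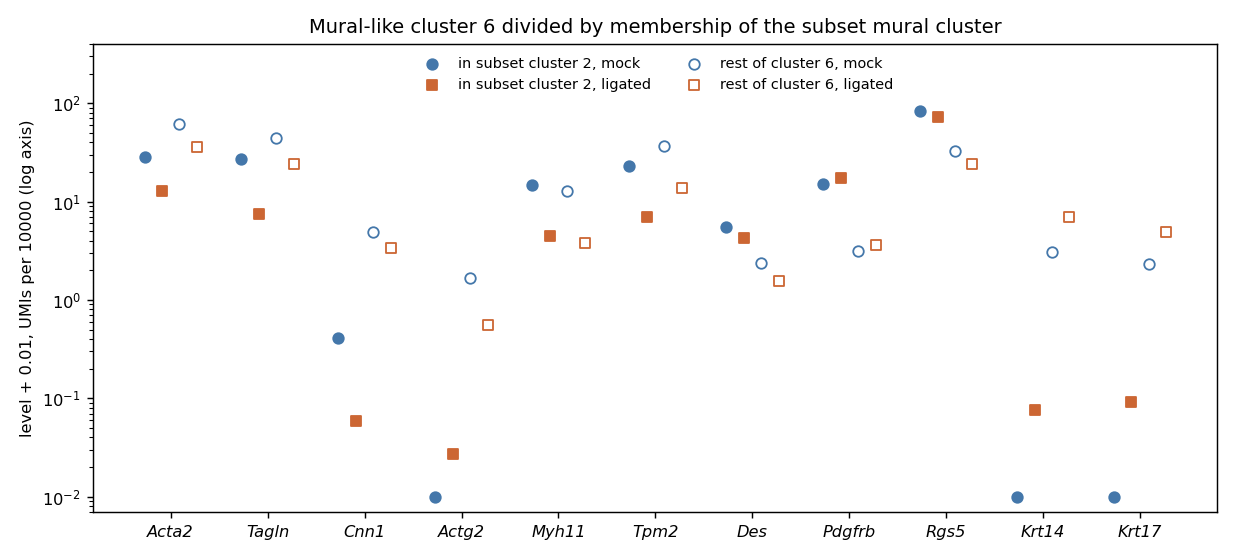
Level + 0.01 in UMIs per 10000 on a log axis for 7 members, the mural genes Pdgfrb and Rgs5 and the basal keratins Krt14 and Krt17. Filled symbols are cells of subset cluster 2, open symbols the rest of cluster 6, circles the mock and squares the ligated library. Acta2, Tagln, Tpm2, Cnn1, Actg2, Krt14 and Krt17 are higher in open symbols in both libraries. Myh11, Des, Pdgfrb and Rgs5 are higher in filled ones.

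A large share of some members also lay outside the whole subset, counting all of its clusters. Of the summed level over all cells, 78.7% of Cnn1 in the mock and 94.4% in the ligated library lay in cells outside it, and 100% and 92.8% of Actg2. For Acta2 the shares were 39.1% and 63.3%, and for Tagln 31.1% and 63.3%. Des was the least affected, with 14.3% and 21.0% outside. The tables of the subset thus hold less of Acta2, Tagln and Cnn1 in the ligated than in the mock library.

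Other genes of the contractile apparatus showed the same direction. Of 27 such genes, 22 reached 0.5 in cluster 6, of which 7 were past the rule and lower (Synpo2, Ppp1r14a, Csrp1, Synm, Sorbs2, Flna and Actn1) and 0 were higher. Their median difference was -0.71. The most abundant were Myl6, the essential light chain (27.9 in the mock and 19.6 in the ligated cells), Cald1, caldesmon (24.5 and 17.6), Itga1, an integrin that binds collagen and laminin (12.3 and 6.73), and Mylk, the kinase that phosphorylates the regulatory light chain (10.4 and 6.34), and none of these 4 passed. Ppp1r14a, an inhibitor of myosin phosphatase, stood at 5.97 and 1.39 (-2.03), and was chosen after its values were seen. In the subset 8 of 22 passed and were lower, with a median of -0.86.

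Genes of contraction and relaxation signalling that passed the rule in the mural-like cells were also lower. Of 35 with a row, 24 reached 0.5 in cluster 6, 5 were past the rule and lower (Ednrb, Agtr1a, P2rx1, Abcc9 and Atp2a2) and 0 were higher, with a median difference of -0.60. Ednrb, an endothelin receptor, stood at 23.0 and 8.65 (-1.40), and Abcc9, the regulatory subunit of a vascular potassium channel, at 16.5 and 7.35 (-1.16). Kcnj8, the pore of the same channel, stood at 16.9 and 10.6 (-0.68), and Rgs5 at 73.5 and 56.1 (-0.39). Gucy1a1, a subunit of the receptor for nitric oxide, was nearly level at 9.84 and 9.53. In the subset 4 of 24 passed and were lower (Ednrb, Kcna5, Pln and Atp2a2), with a median of -0.45. In fibroblast-like cluster 3, by contrast, 1 of 9 that reached 0.5 passed and was higher, and 0 were lower. It was Gucy1a1, at 0.0483 and 0.597 (2.23), and at 0.0505 and 0.672 (2.36) in the fibroblast-like cluster of the subset.

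Known regulators of the programme had a median difference close to that of all genes. Of the 23 regulators listed in both libraries 15 reached 0.5 in cluster 6, 1 was past the rule (Fhl1, a LIM-domain protein, at 0.618 and 0.254) and the median difference was -0.12. Srf, the serum response factor, stood at 0.296 and 0.0275, and its cofactor Myocd at 0.131 and 0.0560, both below the minimum level. The most abundant were Ebf1 (10.8 and 12.4), Notch3 (9.87 and 6.19), Mef2c (5.59 and 5.91) and Nr2f2 (4.95 and 5.19). The related cofactors Mrtfa and Mrtfb were listed only in the ligated library and their older symbols Mkl1 and Mkl2 only in the mock library, so they were not counted. Among 19 paralogs and broadly expressed relatives with a row, 1 of 12 that reached 0.5 passed, Tpm4 at 5.92 and 2.76 (-1.07). Actb (68.9 and 52.2), Actg1 (10.5 and 10.4), Vim (9.59 and 5.59) and Myh9 (5.82 and 4.79) did not, and the list median was -0.21. In the subset 0 of 13 regulators passed, Fhl1 standing at 0.497 and 0.277 (-0.66). Among the relatives 1 of 12 passed there too, but it was Vim, at 9.72 and 4.72 (-1.03), while Tpm4 stood at 5.66 and 2.98 (-0.91).

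The mural markers, which include no member, were also lower in the ligated library, with a median difference of -0.65 in cluster 6, where 3 of 11 (Abcc9, Cox4i2 and Mcam) passed. The lists overlap: Rgs5, Kcnj8, Abcc9 and Gucy1a1 are also counted in the signalling list and Notch3 among the regulators. In the subset the median of the mural markers was -0.47 and 2 of 11 passed. The members' median over the 9 genes with a mean of at least 0.05 there was -1.15. Whether the lists differ was not tested.

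**Figure D4:**
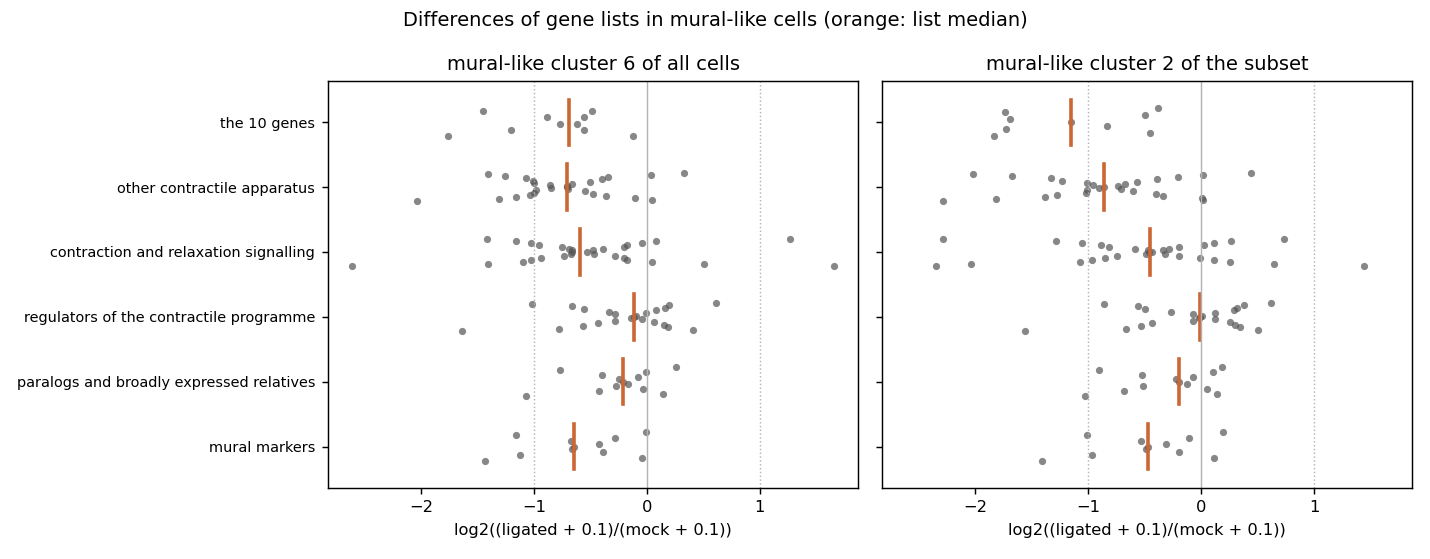
Difference log2((ligated + 0.1)/(mock + 0.1)) of each gene with a mean of both values of at least 0.05, by list, in mural-like cluster 6 (left) and subset cluster 2 (right), with the list median in orange and dotted lines at -1 and 1. The member medians are -0.69 over 10 genes on the left and -1.15 over 9 genes on the right, where Actg2 is left out. With Actg2 the right median is -0.99. Member medians and those of the other contractile genes (-0.71 and -0.86) lie left of those of the regulators (-0.12 and -0.0068).

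In the fibroblast-like cells no member passed the size rule. Only 2 members reached its minimum of 0.5 in cluster 3, and 3 in its subset counterpart. Cluster 3 held 188 mock and 1149 ligated cells, its subset counterpart 167 and 949, and 4.47% and 4.75% of genes were called higher there and 9.78% and 10.1% called in either direction. Without genes at 0 throughout 1 library 3.26% and 3.41% were called higher. Acta2 stood at 0.0718 in the mock and 0.304 in the ligated cells of cluster 3 (1.23), and at 0.0680 and 0.327 in the subset (1.35). Tagln stood at 0.0389 and 0.396 (1.84), and at 0.0438 and 0.406 in the subset (1.81). Both differences were larger than 1, but the levels stayed under the minimum of 0.5 and far below the ligated mural-like levels of 20.8 for Acta2 and 13.3 for Tagln. Tpm1 reached the minimum, at 1.28 and 2.22 (0.75), and so did Tpm2, at 0.636 and 0.558 (-0.16).

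The other members were low in fibroblast-like cells. Myl9 stood at 0.427 and 0.494, Des at 0.241 and 0.171, and Myh11 at 0.0792 and 0.0469. Cnn1, Actg2 and Lmod1 were listed at 0 in the mock cells and stood at 0.0168 or less in the ligated cells. For scale, 1 UMI in 1 cell of the median recovered depth adds 0.00415 to a mock mean and 0.000611 to a ligated mean of this cluster. Other-type markers had a median ratio to the library mean of 3.40% among mock and 9.54% among ligated cells, and the 11 mural markers summed to 4.90 and 8.99. After subtraction of the library profile Acta2 stood at 0.0213 and 0.200 and Tagln at 0 and 0.330, with differences of 1.31 and 2.10. The part of the mural markers was not tested.

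Of 17 genes associated with myofibroblasts, 13 reached 0.5 in cluster 3, 4 were past the rule and higher (Postn, Lox, Runx1 and Ltbp2) and 1 was lower (Fn1), with a median difference of 0.48 against -0.044 for all genes. Postn, a matricellular protein, stood at 1.23 in the mock and 4.70 in the ligated cells, and Lox, an enzyme that crosslinks collagen, at 1.41 and 3.39. Ltbp2, a matrix protein that binds elastic fibres, stood at 0.0570 and 1.48. The most abundant, Col3a1 (48.6 and 54.9), Col1a1 (24.5 and 34.2), Col5a2 (8.74 and 9.63) and Cdh11 (4.72 and 7.14), did not pass. In the subset 5 were higher and 1 lower, Aspn being the addition.

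**Figure D5:**
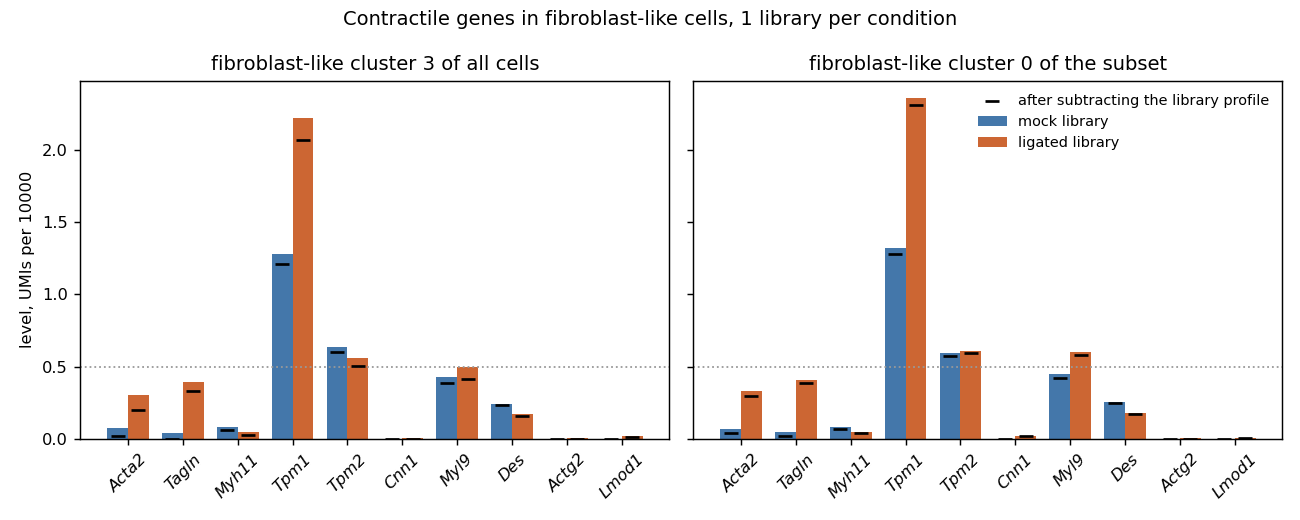
Level in UMIs per 10000 of the 10 genes in fibroblast-like cluster 3 of all cells (left) and cluster 0 of the subset (right), with bars for the mock (blue) and ligated (orange) library, black dashes for the level after subtraction of the library profile and a dotted line at the minimum of 0.5. Tpm1 has the tallest bars, and the ligated bars of Acta2 and Tagln exceed the mock bars but stay under the line.

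In the other 7 compared clusters of all cells 2 of 70 pairs of a member and a cluster passed the rule, both in ductal-like cluster 7. Acta2 stood there at 0.370 in the mock and 1.32 in the ligated cells (1.60) and Tagln at 0.188 and 0.556 (1.19), where 14.8% of 3255 genes were called higher (13.9% without genes at 0 throughout 1 library) and 26.5% in either direction. After subtraction of the library profile Acta2 stood there at 0.268 and 1.08, still past the rule, and Tagln at 0.103 and 0.403, below the minimum level. In the remaining 6, none of the 10 genes passed. Only 1 member reached 0.5 in each of clusters 0, 4, 5 and 10, and 0 in clusters 1 and 2, where none could pass. Among genes that reached it, the share called in either direction was 6.6% in endothelial-like cluster 0 and 4.56% in natural killer-like cluster 1. It was 5.34% in T cell-like cluster 2 and 6.1% in endothelial-like cluster 4. In macrophage-like cluster 5 it was 8.48%, and in erythroid-like cluster 10 it was 25.2%. The cells of the ductal-like cluster were shallow, with median recovered totals of 1076.5 and 982.5 UMIs, and 1 UMI in such a cell adds 0.0462 and 0.0366 to the mean. Other-type markers stood at 6.85% and 22.2% of the library mean there, and Acta2 at 24.9% and 121%. Mural markers summed to 1.09 and 1.10, nearly level. The myoepithelial markers summed to 0.174 and 0.207, with 2 of 4 above 0 in each library and not the same 2. At this depth those sums rest on few UMIs and no difference can be read from them. Endothelial markers summed to 7.61 and 12.2 and macrophage markers to 0.274 and 4.23, and their part in the result was not tested.

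In natural killer-like cluster 1 and T cell-like cluster 2 summed member levels were 0.792 and 0.802 in the mock and 0.937 and 1.06 in the ligated library. These sums compare with 165 and 84.0 in the mural-like cells. Tpm1, which also makes non-muscle isoforms, was the largest part of each. It stood at 0.323 and 0.370 in the mock and at 0.452 and 0.490 in the ligated library. Endothelial-like cluster 0 summed to 2.11 and 2.27, most of it Tpm1. The macrophage-like cluster summed to 0.888 and 2.01, with a median difference of 0.40 and a ratio of other-type markers to the library mean of 10.5% and 19.2%.

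Endothelial-like cluster 3 of the subset also held members, with 4 past the rule and lower (Acta2, Tagln, Myh11 and Tpm2) where 4.23% of 4115 genes were called lower (3.41% without genes at 0 throughout 1 library). Acta2 stood at 1.49 in the mock and 0.598 in the ligated cells, Tagln at 1.28 and 0.353, and Myh11 at 1.19 and 0.287. Among the 132 cells that could be matched between the tables, 33.3% lay in fibroblast-like cluster 3, 30.3% in mural-like cluster 6 and 21.2% in endothelial-like cluster 0. Its mural markers summed to 20.3 in the mock and 14.8 in the ligated cells, its endothelial markers to 175 and 109, its fibroblast markers to 20.0 and 70.0 and its erythroid markers to 26.6 and 1.37, and their part in the differences was not tested. In endothelial-like cluster 0 of all cells Acta2 stood at only 0.108 and 0.221.

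Over the 24 columns of clusters and libraries, the 5 genes whose log2(level + 0.1) correlated most with the mean of the members were Higd1b (Pearson r = 0.98), Notch3 (0.98), Rgs4 (0.98), Cck (0.97) and Ajuba (0.97). The members themselves ranged from 0.88 for Tpm1 to 0.98 for Tagln. Each member is part of that mean, which raises its value, so the members cannot be set against the 5 genes. Columns of a library share its preparation and its free RNA, so these values are descriptions. In cluster 6 Higd1b stood at 9.72 in the mock and 7.24 in the ligated cells (-0.42) and Notch3, a receptor needed for arterial smooth muscle, at 9.87 and 6.19 (-0.66). Ajuba, a LIM-domain protein of cell junctions, was the only one of the 5 past the size rule, at 1.66 and 0.667 (-1.20).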

How the data were processed

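The labels describe 10X Genomics single-cell libraries. The submitters' processing notes name Cell Ranger 6.0.1, Seurat and mm10. The authors deposited 4 tables of cluster means, all cells and a subset, each joint and split by condition. The deposited values (unit other: neither counts nor CPM) were read as linear means of UMIs per 10000, since every column sums to 10000. Cell filters, clustering and doublet removal are not given in the sources used here. Of the symbols in the split tables, 21 had turned into dates and were restored from the row order of the joint tables. Joint values are weighted means of split values, which gave cell numbers (weight tolerance 2e-09, denominators up to 20000, whole UMI totals within 1e-06). The difference used a pseudocount of 0.1, which understates changes of low genes. No count model could be fitted and no test was made. Medians for lists used genes with a mean of at least 0.05 in both libraries' average, and 3834 genes at 0 in every cluster of 1 library were left out of lists. Subtraction removed the library mean profile at the median share at which markers of other cell types stood. Cluster names follow marker lists. Doublets were not called. The cell number and size rule code was tested on simulated data. Python 3.11.15, pandas 2.3.3, numpy 2.4.6 and matplotlib 3.10.9 were used. Named genes were the members, the 4 most abundant genes per list, the 5 genes of most similar pattern, and, chosen after their values were seen, genes past the rule, single regulators, channel subunits and cell type markers. Members and lists were chosen with earlier results of these data known. Alternatives covered pseudocount, minimum level, size, centring and subtraction. All value columns were assigned.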

Additional observations from a re-analysis of the deposited data

Results flagged for a closer look

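Acta2 and Tagln were past the size rule in opposite directions in different clusters, a contrast that was not tested. Acta2 was higher in the ligated library in ductal-like cluster 7 (1.60) and lower in mural-like cluster 2 (-1.15) and endothelial-like cluster 3 (-1.19) of the subset. Tagln was higher in ductal-like cluster 7 (1.19, a call lost after subtraction of the library profile, at 0.103 in the mock and 0.403 in the ligated cells) and lower in mural-like cluster 6 (-1.20) and in clusters 2 (-1.83) and 3 (-1.60) of the subset. Several members also stood well above the mock level in clusters with fewer than 50 cells in 1 library, which entered no comparison. In cluster 8, led by acinar genes, with 25 mock and 264 ligated cells, the ligated levels were 3.35 for Acta2, 1.92 for Myl9, 1.45 for Tagln, 1.40 for Tpm1 and 1.09 for Tpm2. The mock levels were 0.161 for Acta2, 0.542 for Tpm1 and 0.169 for Tpm2, and Myl9 and Tagln were listed at 0. Markers of other types stood there at 7.05% of the library mean among mock and 89.7% among ligated cells, the 11 mural markers summed to 0.443 and 6.30, and the median recovered totals were 5440 and 995.5 UMIs. In cluster 1 of the subset, with 14 mock cells, Acta2 stood at 0.448 in the mock and 1.33 in the ligated cells and Myl9 at 0.160 and 1.02, while Tagln stood at 1.20 and 0.797. In its cluster 4, with 10 mock and 17 ligated cells, Tpm1 stood at 0.351 and 1.47, while Myl9 stood at 0.230 and 0.0769 and Des at 0.265 and 0.0591.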

How the results depend on the processing

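No paired analysis was possible because each condition had 1 library, and no replicate could be left out. In cluster 6 and in subset cluster 2 a size of at least 2 left 0 members in place of 3 and 4. With the minimum level dropped, 2 members (both higher) passed in each fibroblast-like cluster in place of 0. Shares of all genes called were not computed for a changed size, minimum, pseudocount or subtraction, so member counts under them have no background. Of the pairs in other clusters, 2 in the main setting, 6 passed without the minimum (5 higher, 1 lower), 1 after subtraction of the library profile (Tagln in the ductal-like cluster was lost), and 0 with a pseudocount of 1, with a higher value of at least 2 or with a size of at least 2. The direction of every member in both mural-like clusters was the same under all 7 alternative settings. Changes of pseudocount, minimum or size cannot turn a direction, so only centring and subtraction could have done so. In the cells of cluster 6 outside the subset cluster, an alternative added after the data were seen, 4 members passed with a median of -0.93, beside 17.7% of all genes called lower. Of 160 differences of single members under alternatives, 147 moved by less than a factor of 1.5 and 0 past the rule changed sign. There too a changed pseudocount could not have changed a sign. Shares held by cluster 6 ranged from 77.1% to 89.2% in the mock and from 59.2% to 72.9% in the ligated library. In small or shallow clusters, levels below 0.1 rest on few UMIs. There 1 UMI in 1 cell of median recovered depth adds up to 0.0462, as in the mock cells of ductal-like cluster 7. In the ligated cells of natural killer-like cluster 1 it adds only 0.00036.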
